A study of Mus musculus with 6 samples.

Results

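Small leucine-rich proteoglycans are secreted proteins of connective tissue, and 8 of their genes were followed here, namely Fmod, Prelp, Ogn, Podn, Aspn, Bgn, Lum and Dcn. Each was found as the row of the deposited table that carries its symbol, which gave 8 rows of 23194 genes. The genes were chosen with their change after injury in these same libraries already known, so their levels and fold changes are given as a description, without a p-value for any of them. All mice were adult, wild type and of the inbred strain C57BL/6, and whole left lungs were sequenced. The injured lungs (3 libraries) had a ligature on the left pulmonary artery for 4 h followed by 24 h of reperfusion. The naive lungs (3 libraries) have control as their treatment label, and a sham operation is not among their labels, so surgery and ischemia cannot be told apart. Each library was taken as 1 mouse, since an animal has a single left lung.

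Small leucine-rich proteoglycans share a core of leucine-rich repeats that curves around collagen, and most carry glycosaminoglycan chains. They set the width and spacing of collagen fibrils, hold growth factors such as TGF-beta in the matrix, and when released as soluble fragments can be sensed by innate immune receptors. In the lung they are made mainly by fibroblasts and other mesenchymal cells of the airway and vessel sheaths and of the alveolar wall. Decorin (Dcn), biglycan (Bgn) and asporin (Aspn) form class I, of which decorin and biglycan carry chondroitin or dermatan sulfate. Fibromodulin (Fmod), lumican (Lum) and the proline- and arginine-rich PRELP (Prelp) belong to class II, the class that includes keratan sulfate carriers. Osteoglycin (Ogn) is a class III protein, and podocan (Podn) a class V protein with a longer run of repeats. The GENCODE M21 models of the main coding transcripts follow the classes, with 8 exons for each class I gene, 3 exons for each class II gene, 7 for Ogn and 13 for Podn.

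Libraries held 20062818 to 23638078 gene counts from injured and 18913487 to 34986276 from naive lungs. All 8 genes passed the filter on low counts, and the thinnest values rested on 90 counts (Fmod) and 145 counts (Lum) in injured libraries. CPM below are counts per 1e+06 of library size, with TMM scaling, and each log2 fold change sets injured over naive in edgeR's fit to all 15486 genes kept by the filter. All 8 markers of lung epithelium and endothelium were present, with summed levels of 43251 to 47100 CPM in injured and 41259 to 52740 CPM in naive lungs. Injured replicate 3 was the lowest lung on the second principal component, at -35.4 against 11.1 and 25.2 for injured replicates 1 and 2, and it matters below for Lum and Aspn. Naive replicates 1, 2 and 3 were at 19.8, -3.63 and -17.1, so naive replicates 2 and 3 were on its side of 0. Summed markers of neutrophils were 508 to 1156 CPM in injured and 45.1 to 78.4 CPM in naive lungs.

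Fmod and Prelp, and with a narrower margin Ogn, were lower in injured lungs. The groups overlapped for Podn, Dcn, Bgn, Aspn and Lum. In the fit 2 of 8 genes, Fmod and Prelp, were called lower at an adjusted p under 0.05 and 0 were called higher, where 0.956% of all genes tested were called lower and 2.16% higher. Since this contrast chose the genes, nothing is read from that count. The CPM of injured and naive lungs did not overlap for 3 of the 8, all lower in injured lungs, against 10.6% of all genes tested that were separated in this direction. The median log2 fold change of the 8 was -0.32, and that of all genes tested was -0.00096.

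**Figure D1:**
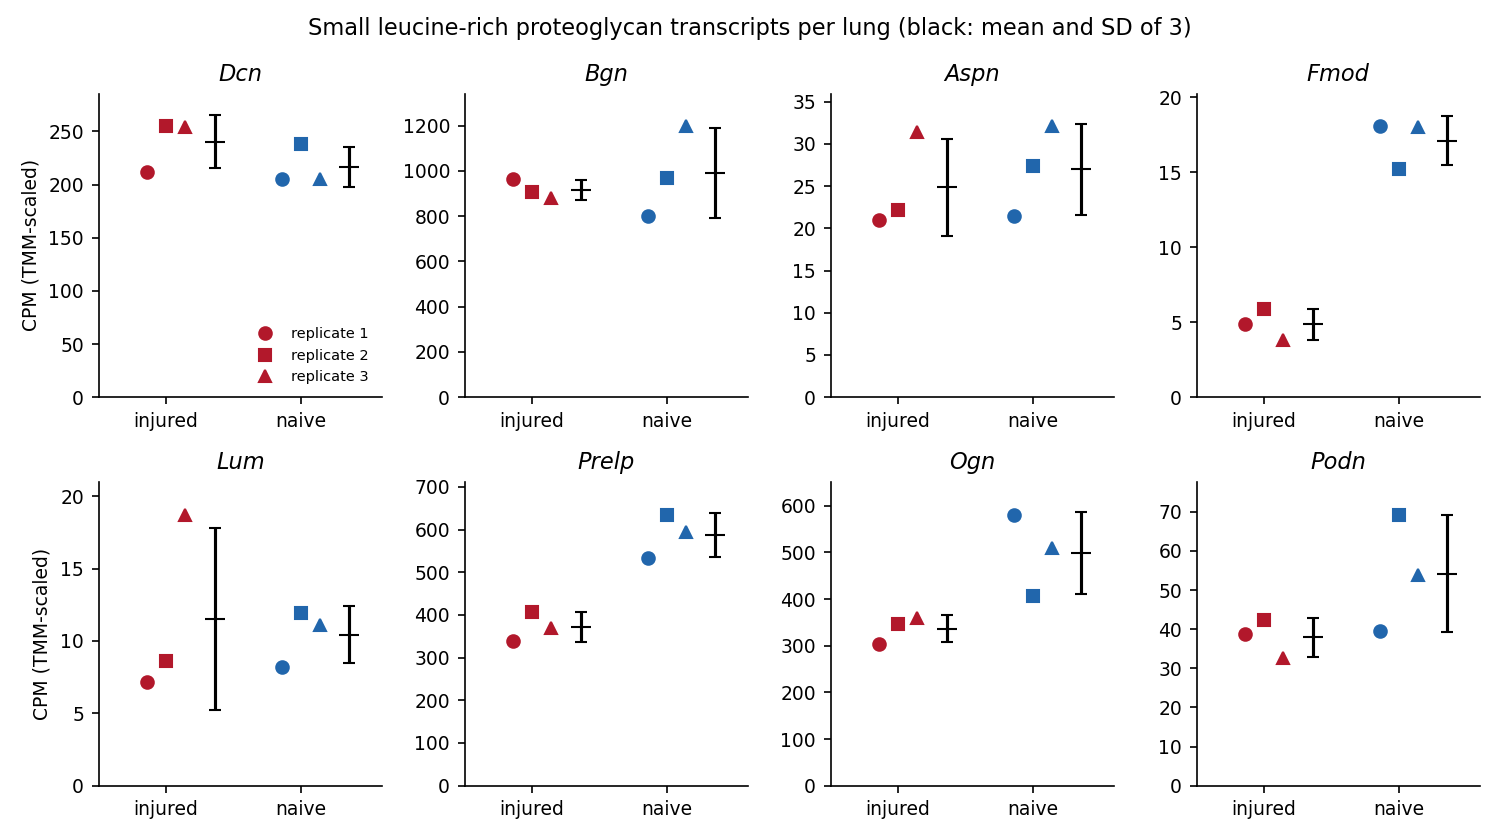
CPM of each gene in 3 injured (red) and 3 naive (blue) lungs, with the replicate given by symbol and the mean and SD of each group in black; every vertical axis starts at 0. The injured and naive points are apart for Fmod, Prelp and Ogn and intermingle for the other 5 genes.

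Fmod, on chromosome 1 from 134037254 to 134048277 (mm10, ENSMUSG00000041559), encodes fibromodulin, which binds type I collagen and has a part in setting fibril width. It had 4.86, 5.89 and 3.80 CPM in injured replicates 1, 2 and 3, against 18.1, 15.2 and 18.0 CPM in naive replicates 1, 2 and 3. Every injured lung was below every naive lung, and the naive lungs lay within 1.19-fold of each other. The group means were 4.85 ± 1.05 CPM in injured and 17.1 ± 1.63 CPM in naive lungs (SD, n = 3 each), a log2 fold change of -1.82 ± 0.18 (SE). The injured level was 28.3% of the naive one by the fit. Of the 15486 genes tested, 26 had a lower log2 fold change.

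Prelp lies on the same chromosome from 133910304 to 133921414 (ENSMUSG00000041577), on the opposite strand and 115839 bases from Fmod with 0 annotated protein-coding genes lying wholly between them. Its protein has a basic end that binds heparan sulfate and is thought to tie basement membranes to the connective tissue beneath. Prelp had 338, 407 and 369 CPM in injured replicates 1, 2 and 3, against 533, 635 and 595 CPM in naive replicates 1, 2 and 3. The groups did not overlap, and within each the lungs differed by at most 1.21-fold. Means were 371 ± 34.8 CPM in injured and 588 ± 51.4 CPM in naive lungs (SD, n = 3 each), a log2 fold change of -0.66 ± 0.11 (SE). An annotated antisense gene, Gm15851, covers 4519 bases of the locus, and reads of the 2 strands could not be told apart if counting took no account of strand. The call was lost without injured replicate 1 and without naive replicate 2, with log2 fold changes of -0.60 and -0.61.

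Ogn, on chromosome 13 from 49608071 to 49624500 (ENSMUSG00000021390), encodes osteoglycin, a regulator of collagen fibril formation also called mimecan. It had 304, 346 and 359.6 CPM in injured replicates 1, 2 and 3, against 581, 406 and 510.3 CPM in naive replicates 1, 2 and 3. The highest injured lung stayed below the lowest naive lung, with the naive lungs spread over 1.43-fold. The log2 fold change was -0.57 ± 0.13 (SE), which missed the threshold with all libraries and passed it by DESeq2, with no filter on low counts and without naive replicate 2. In the authors' deposited table, whose log2 fold changes were -1.51 for Fmod, -0.62 for Prelp and -0.52 for Ogn, 3 of the 8 genes had an adjusted p under 0.05, and these were the 3, all lower, where that table called 2.54% of its 15721 genes with an adjusted p lower. That comparison is of the same libraries that chose the genes, so nothing is read from its count.

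The sequences upstream of these 3 genes are shown because they are the members that were lower in every injured lung. RefSeq promoters of build GRCm38.p6 were found for 6 of the 8 genes, Fmod, Prelp, Ogn, Aspn, Bgn and Podn. The stretch printed runs from 250 to 21 bases before the RefSeq start, on the gene's strand, at chr1:134037004-134037233 (+) for Fmod, chr1:133921422-133921651 (-) for Prelp and chr13:49607765-49607994 (+) for Ogn. Capitals mark the SMAD element CAGAC or its other strand GTCTG, and the TEAD motif GGAATG or CATTCC, the letters bound by the transcription factors of TGF-beta and of YAP/TAZ signalling.
Fmod: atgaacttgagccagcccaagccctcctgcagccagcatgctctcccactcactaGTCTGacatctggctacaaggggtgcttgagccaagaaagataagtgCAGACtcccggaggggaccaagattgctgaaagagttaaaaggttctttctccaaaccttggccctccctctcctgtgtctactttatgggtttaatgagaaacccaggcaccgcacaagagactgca
Prelp: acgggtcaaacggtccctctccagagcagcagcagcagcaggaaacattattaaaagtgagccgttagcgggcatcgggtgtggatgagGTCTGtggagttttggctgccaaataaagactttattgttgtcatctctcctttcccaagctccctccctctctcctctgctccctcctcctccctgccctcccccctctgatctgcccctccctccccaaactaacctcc
Ogn: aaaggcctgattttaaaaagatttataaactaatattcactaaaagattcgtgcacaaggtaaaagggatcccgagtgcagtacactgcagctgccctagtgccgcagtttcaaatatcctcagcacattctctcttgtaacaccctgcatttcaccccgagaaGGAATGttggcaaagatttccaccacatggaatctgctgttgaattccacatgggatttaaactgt
The SMAD letters were found at 195 and 148 bases before the start of Fmod and 161 bases before that of Prelp, and in no other member of the 6, while 39.7% of all 32851 promoters hold them in a stretch of this length. The TEAD letters were found in Ogn alone, 86 bases before its start, and 11.8% of all promoters hold them. An AP-1 motif, TGANTCA on either strand, was in 0 of the 6 and in 6.34% of all promoters. An NF-kB motif, GGG and CC with any 5 bases between them on either strand, was in Podn alone and in 42.7% of all promoters. The RefSeq start of Podn, at 108031954 on chromosome 4, lies inside the locus counted for Podn and not at its upstream end, so its stretch is not upstream of every transcript counted. A TATA box, TATAAA or TTTATA, was in Ogn and Aspn, at 227 and 229 bases before the start of Ogn where both spellings overlap, and in 11.8% of all promoters. An E-box, CANNTG, which reads alike on both strands and does not overlap the capitals, was in 5 of the 6, all but Prelp, against 63.5% of all promoters. These are matches of letters and nothing was measured of binding. In base content the stretches ran from 29.6% G and C for Aspn to 77.8% for Podn, with 51.7% for Fmod, 55.7% for Prelp and 41.7% for Ogn, where the median over all promoters was 51.7%.

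Podn, on chromosome 4 from 108014791 to 108096445 (ENSMUSG00000028600), encodes podocan, which restrains smooth muscle cell growth in mice. It had 38.8, 42.3 and 32.6 CPM in injured replicates 1, 2 and 3, against 39.5, 69.3 and 53.7 CPM in naive replicates 1, 2 and 3. Injured replicate 2 was above naive replicate 1, so the groups overlapped, and the naive lungs differed by 1.75-fold. The log2 fold change was -0.51 ± 0.20 (SE). It was not called with all libraries and was called without naive replicate 1, at -0.70. Over 52607 bases the Podn locus shares its place and strand with Scp2, which had 5282 to 8008 counts in injured and 4638 to 7671 in naive libraries, so reads of shared exons are uncertain for Podn.

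Bgn, on chromosome X from 73483602 to 73495933 (ENSMUSG00000031375), encodes biglycan, which in soluble form is sensed through Tlr2 and Tlr4. It had 963, 906 and 879 CPM in injured replicates 1, 2 and 3, against 803, 970.0 and 1199 CPM in naive replicates 1, 2 and 3. The injured lungs lay close together inside the wide naive range. Their coefficient of variation was 4.68%, against 20.1% in naive lungs (n = 3 each). The log2 fold change was -0.11 ± 0.14 (SE) and its sign turned without naive replicate 3 (0.04).

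Dcn, on chromosome 10 from 97479500 to 97518162 (ENSMUSG00000019929), encodes decorin, which coats collagen fibrils and binds TGF-beta. It had 212, 255 and 254 CPM in injured replicates 1, 2 and 3, against 205, 238 and 205 CPM in naive replicates 1, 2 and 3. The ranges overlapped and the log2 fold change was 0.15 ± 0.11 (SE), positive in all 14 fits and called in 0 of them. Lum, 47338 bases further along the same chromosome from 97565501 to 97572703 (ENSMUSG00000036446), encodes lumican, which keeps collagen spacing regular in the mouse cornea. It had 7.19, 8.60 and 18.7 CPM in injured replicates 1, 2 and 3, against 8.20, 12.0 and 11.1 CPM in naive replicates 1, 2 and 3. Injured replicate 3 was the highest of the 6 lungs and injured replicates 1 and 2 were below naive replicates 2 and 3. The log2 fold change of 0.15 ± 0.37 (SE) turned to -0.40 without injured replicate 3 and to -0.0034 without naive replicate 1.

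Aspn, on chromosome 13 from 49544443 to 49567557 (ENSMUSG00000021388) and 40513 bases before Ogn, encodes asporin, which binds collagen and TGF-beta. It had 21.0, 22.2 and 31.4 CPM in injured replicates 1, 2 and 3, against 21.4, 27.4 and 32.1 CPM in naive replicates 1, 2 and 3. The ranges all but coincided, and injured replicate 3 was again the highest of its group. The log2 fold change was -0.12 ± 0.19 (SE) and 0.03 without naive replicate 3. Aspn and Ogn both lie inside Cenpp, a kinetochore gene on the opposite strand. Cenpp had 20 to 42 counts in injured and 19 to 62 in naive libraries, few beside the 423 to 745 counts of Aspn in injured and 518 to 1098 in naive libraries.

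**Figure D2:**
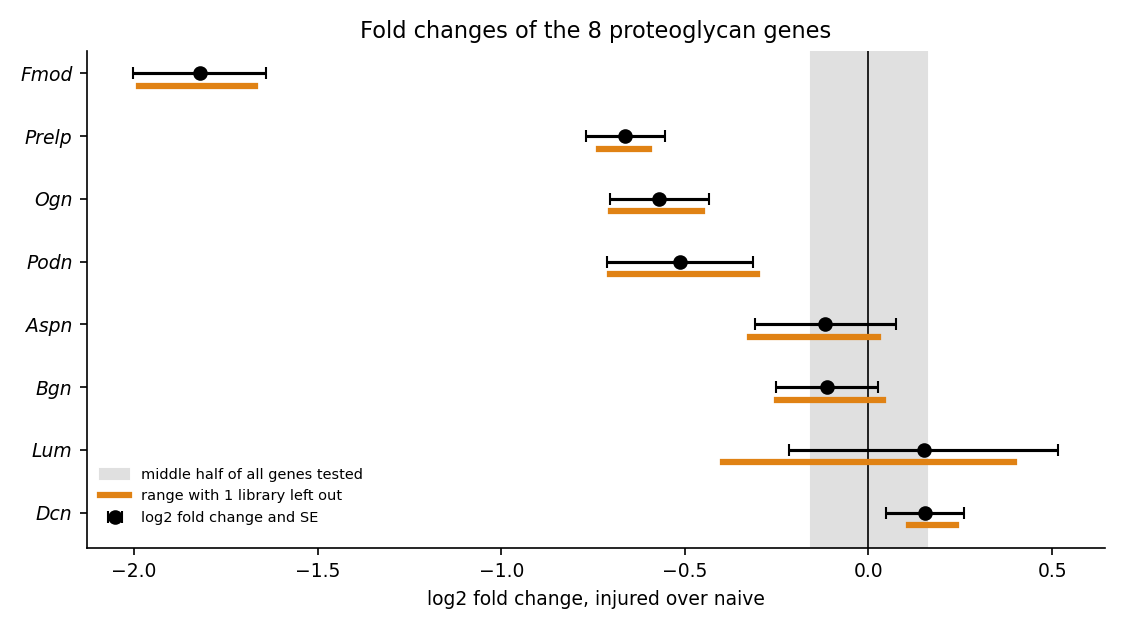
Log2 fold change of injured over naive lungs for the 8 genes, with its SE (black) and its range when each of the 6 libraries was left out in turn (orange); grey covers the middle 50% of all genes tested. Fmod at -1.82 stands furthest from 0, Prelp, Ogn and Podn lie between -0.66 and -0.51, and the orange bars of Aspn, Bgn and Lum cross 0.

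Levels were set between genes with the deposited FPKM, which are corrected for gene length. In injured lungs the order was Bgn (345 ± 16.3 FPKM), Ogn (133 ± 11.4), Dcn (128 ± 13.1), Prelp (103 ± 9.76), Aspn (10.6 ± 2.43), Podn (10.5 ± 1.37), Lum (5.57 ± 3.04) and Fmod (1.56 ± 0.340), as mean ± SD of 3. In naive lungs it was Bgn (369 ± 68.3 FPKM), Ogn (195 ± 35.3), Prelp (162 ± 13.7), Dcn (114 ± 10.6), Podn (14.8 ± 4.07), Aspn (11.4 ± 2.11), Fmod (5.45 ± 0.503) and Lum (4.99 ± 0.916). Neighbours in the order whose ranges overlapped were Ogn with Dcn, Dcn with Prelp, Aspn with Podn and Podn with Lum in injured lungs. In naive lungs they were Ogn with Prelp, Podn with Aspn, and Fmod with Lum. Dcn was above Prelp in each injured lung and below Prelp in each naive lung, and Fmod was below Lum in each injured lung.

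Summed over the 8 genes the level was 714, 756 and 743 FPKM in injured replicates 1, 2 and 3, against 821, 867 and 941 FPKM in naive replicates 1, 2 and 3. The sum was lower in every injured lung than in any naive lung. Bgn made up 46.8% ± 3.42 of the sum in injured and 41.8% ± 4.89 in naive lungs (SD, n = 3 each). Dcn made up 17.3% ± 1.33 in injured and 13.1% ± 1.64 in naive lungs. The share of Prelp was 14.0% ± 0.945 in injured and 18.5% ± 1.63 in naive lungs. Fmod was a minor part, at 0.212% ± 0.0440 in injured and 0.624% ± 0.0766 in naive lungs.

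**Figure D3:**
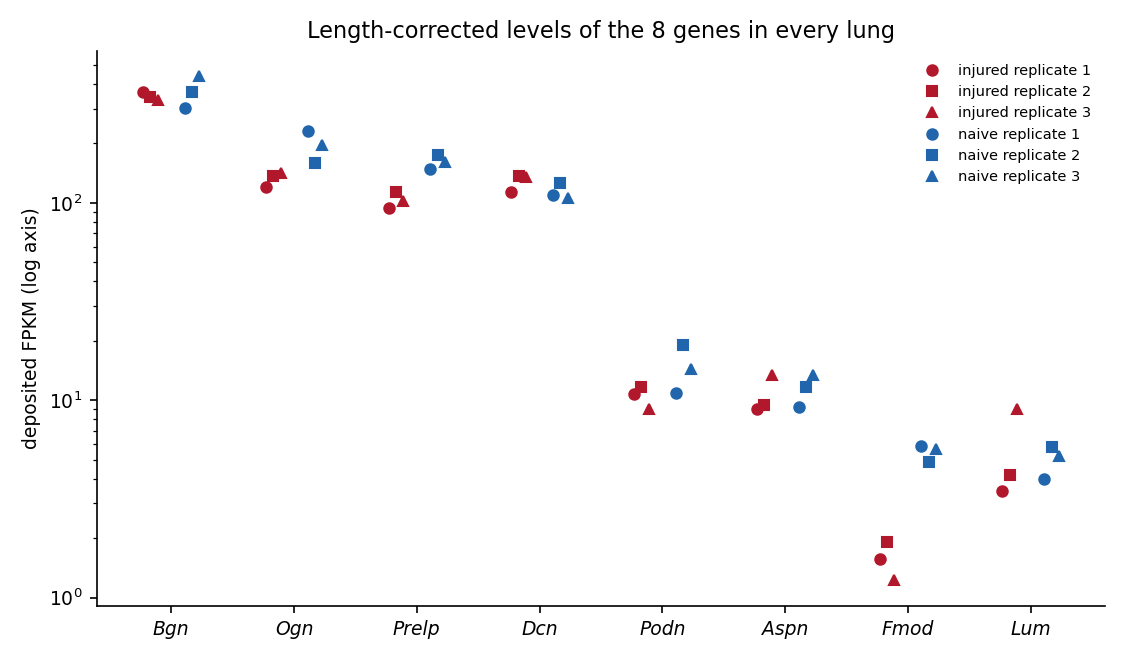
Deposited FPKM of the 8 genes on a log axis, injured lungs in red to the left and naive lungs in blue to the right of each gene, with the replicate given by symbol. Bgn, Ogn, Prelp and Dcn were above 90 FPKM in every lung and the other 4 genes below 20 FPKM, and Fmod in injured lungs was the lowest at 1.22 to 1.90 FPKM.

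Profiles were compared as the root mean square difference of log2 CPM, centred per gene over the 6 libraries. Such a distance holds the injured minus naive difference, by which the genes were chosen, as well as the spread within groups, so it is a description only. Among the members the closest pairs were Prelp with Podn (0.21), Bgn with Aspn (0.22) and Ogn with Prelp (0.24), and the farthest was Fmod with Lum (1.11). Lum and Aspn, both highest of the injured lungs in replicate 3, differed by 0.27. Of 11638 other genes averaging at least 5 CPM, Sfrp2, Scube2 and Fras1 were nearest to Fmod, at 0.32, 0.35 and 0.36, all closer than Prelp, its nearest member, at 0.62. Sfrp2 encodes a secreted modulator of Wnt signalling, Scube2 a carrier that releases hedgehog proteins, and Fras1 a basement membrane protein of the Fraser complex. Sfrp2 had 2.88, 4.21 and 2.19 CPM in injured replicates 1, 2 and 3, against 9.58, 16.1 and 12.3 CPM in naive replicates 1, 2 and 3. Like Fmod, Sfrp2 and Fras1 were lowest in injured replicate 3 and highest of the injured lungs in replicate 2, whereas Scube2 was lowest in injured replicate 2. The naive lungs were ordered otherwise. There Fmod and Scube2 were lowest in replicate 2, Sfrp2 was highest in replicate 2, and Fras1 was lowest in replicate 1. The likeness to Sfrp2 and Fras1 therefore did not extend to the order of the naive lungs. Nearest to the mean profile of the 8 were N4bp2, Itga1 and Dnajc24, at 0.035, 0.047 and 0.051. Itga1, which encodes a chain of a collagen-binding integrin, had 204 ± 18.5 CPM in injured and 262 ± 21.7 CPM in naive lungs (SD, n = 3 each).

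**Figure D4:**
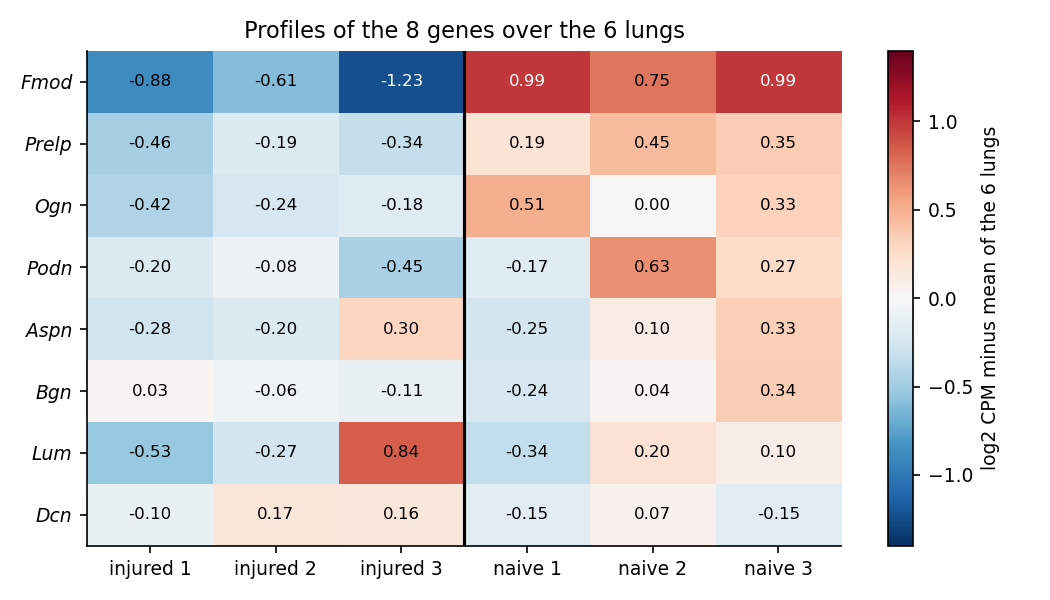
Log2 CPM of each gene minus its mean over the 6 lungs, with genes in rows by log2 fold change and lungs in columns, injured at left. Fmod runs from -1.23 in injured replicate 3 to 0.99 in naive replicates 1 and 3, and Lum reaches 0.84 in injured replicate 3.

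Related genes were taken from 7 lists, chosen from textbook roles with earlier results of these data known. Of their 92 genes, 86 were tested, 4 rose and 3 fell by edgeR's quasi-likelihood test with Benjamini-Hochberg adjustment over all genes. Over all genes tested 2.16% were called higher and 0.956% lower. Since earlier results were known when the lists were chosen, nothing is read from these counts or from those of each list. The first list holds the other members of the wider family. Of its 10 genes 8 were tested, 1 fell and 0 rose, with a median log2 fold change of -0.31. Ecm2, a matrix protein with leucine-rich repeats whose gene lies beside Aspn on chromosome 13 from 49504810 to 49532789, fell. It had 22.0, 26.2 and 31.3 CPM in injured replicates 1, 2 and 3, against 46.8, 46.0 and 45.1 CPM in naive replicates 1, 2 and 3 (log2 fold -0.79 ± 0.13, adjusted p = 0.0108). The groups did not overlap, and the call was lost without naive replicate 2.

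Omd, or osteomodulin, lies between Aspn and Ogn and did not pass the test (log2 fold -0.60 ± 0.26, adjusted p = 0.296). Along that stretch of chromosome 13 the log2 fold changes were therefore -0.79 ± 0.13 for Ecm2, -0.12 ± 0.19 for Aspn, -0.60 ± 0.26 for Omd and -0.57 ± 0.13 for Ogn (SE). Only Ecm2 among them was called, and a difference between Aspn and Omd was not tested. Chad, or chondroadherin of cartilage, had 17.3, 21.5 and 38.6 CPM in injured replicates 1, 2 and 3, against 19.2, 26.1 and 19.1 CPM in naive replicates 1, 2 and 3. Its highest value was in injured replicate 3, where Lum was also highest. Tsku, or tsukushi (0.30 ± 0.18), Podnl1, the relative of podocan (0.44 ± 0.41), Nyx, or nyctalopin (-0.28 ± 0.31), Chadl (-0.34 ± 0.29) and Optc, or opticin (-0.51 ± 0.61), did not pass the test, as log2 fold changes ± SE. Kera, or keratocan, had counts in naive replicate 3 only, at 0.0878 CPM, and was not tested.

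Of 13 tested collagen fibril genes 2 fell and 0 rose, with a median log2 fold change of -0.07. Both were fibril-associated collagens, which sit on the fibril surface where the proteoglycans also bind. Col12a1 had 56.6, 40.7 and 40.9 CPM in injured replicates 1, 2 and 3, against 87.9, 80.2 and 88.9 CPM in naive replicates 1, 2 and 3 (log2 fold -0.90 ± 0.13, adjusted p = 0.00788). Col14a1 had 39.5, 45.0 and 36.2 CPM in injured replicates 1, 2 and 3, against 50.5, 64.2 and 67.9 CPM in naive replicates 1, 2 and 3 (log2 fold -0.60 ± 0.13, adjusted p = 0.0399). Neither gene's groups overlapped, though the call of Col14a1 was lost with any 1 library left out except naive replicate 1. The fibril chains themselves varied widely between lungs of a group. Col1a1, the main chain of type I collagen, had 506, 459 and 973 CPM in injured replicates 1, 2 and 3, against 302, 574 and 958 CPM in naive replicates 1, 2 and 3, a 3.17-fold range within naive lungs where Fmod spanned 1.19-fold.

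Enzymes that build the sugar chains did not pass edgeR's test. Of 22 tested chondroitin and dermatan sulfate genes edgeR called 0, with a median of 0.09, and DESeq2 and limma-voom called 0. By edgeR 4 had an unadjusted p under 0.05, 2 higher and 2 lower. The most abundant were Fam20b, a kinase of the linker sugar (-0.04 ± 0.08), and Csgalnact2, which starts the chain (0.05 ± 0.09). Of 10 keratan sulfate and tyrosine sulfation genes edgeR and limma-voom called 0, with a median of -0.08. By edgeR 2 had an unadjusted p under 0.05, both lower, and DESeq2 called 1 lower, the tyrosine sulfotransferase Tpst1. The most abundant were the galactosyltransferase B4galt1 at -0.06 ± 0.11 and a second sulfotransferase, Tpst2, at -0.09 ± 0.18. Of 13 growth factors and receptors that bind these proteins 0 were called by edgeR, DESeq2 or limma-voom, with a median of -0.12. By edgeR 4 had an unadjusted p under 0.05, 2 higher and 2 lower. The share of all genes at that unadjusted cutoff was not taken, so nothing is read from these counts. The most abundant were the endocytic receptor Lrp1 at 0.37 ± 0.12 and the TGF-beta receptor Tgfbr2 at 0.21 ± 0.09. These are edgeR's log2 fold changes ± SE.

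Among 7 genes listed for the innate sensing of soluble proteoglycans 2 rose and 0 fell, with a median of 0.40. Cd14, the co-receptor of Tlr2 and Tlr4 in biglycan sensing, had 49.9, 50.5 and 75.9 CPM in injured replicates 1, 2 and 3, against 29.6, 27.8 and 26.6 CPM in naive replicates 1, 2 and 3 (log2 fold 1.07 ± 0.16, adjusted p = 0.0103). Its call was lost without naive replicate 2 or 3. Cd44, a hyaluronan receptor, rose by 0.35 ± 0.08 (adjusted p = 0.0474), a call lost without any 1 library. Of 13 tested proteases that cleave these proteins 2 rose and 0 fell, with a median of 0.06. Both are granule enzymes of neutrophils, Mmp8 (log2 fold 3.65 ± 0.29, adjusted p = 0.00149) and Mmp9 (log2 fold 3.45 ± 0.32, adjusted p = 0.00550). Mmp8 had 49.1, 65.3 and 33.6 CPM in injured replicates 1, 2 and 3, against 3.83, 2.96 and 4.80 CPM in naive replicates 1, 2 and 3. Of 6 neutrophil markers 5 rose in the same fit. Adamts4, an aggrecanase that cuts several of these proteoglycans and named here after its values were seen, had 17.4, 13.3 and 45.3 CPM in injured replicates 1, 2 and 3, against 0.874, 1.53 and 4.21 CPM in naive replicates 1, 2 and 3. Every injured lung was above every naive lung, yet edgeR did not call it (log2 fold 3.47 ± 0.81, adjusted p = 0.125), while DESeq2 did. The same held for the protease Mmp3 (1.05 ± 0.30, adjusted p = 0.157) and the innate receptor Nlrp3 (0.94 ± 0.23, adjusted p = 0.0661). Their groups were also apart. Of edgeR, DESeq2 and limma-voom with all libraries, DESeq2 alone called Mmp3 and Nlrp3 higher, and their calls in the other fits are not given. Mmp3 had 65.4, 61.9 and 99.3 CPM in injured replicates 1, 2 and 3, against 27.3, 30.4 and 51.4 CPM in naive replicates 1, 2 and 3.

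**Figure D5:**
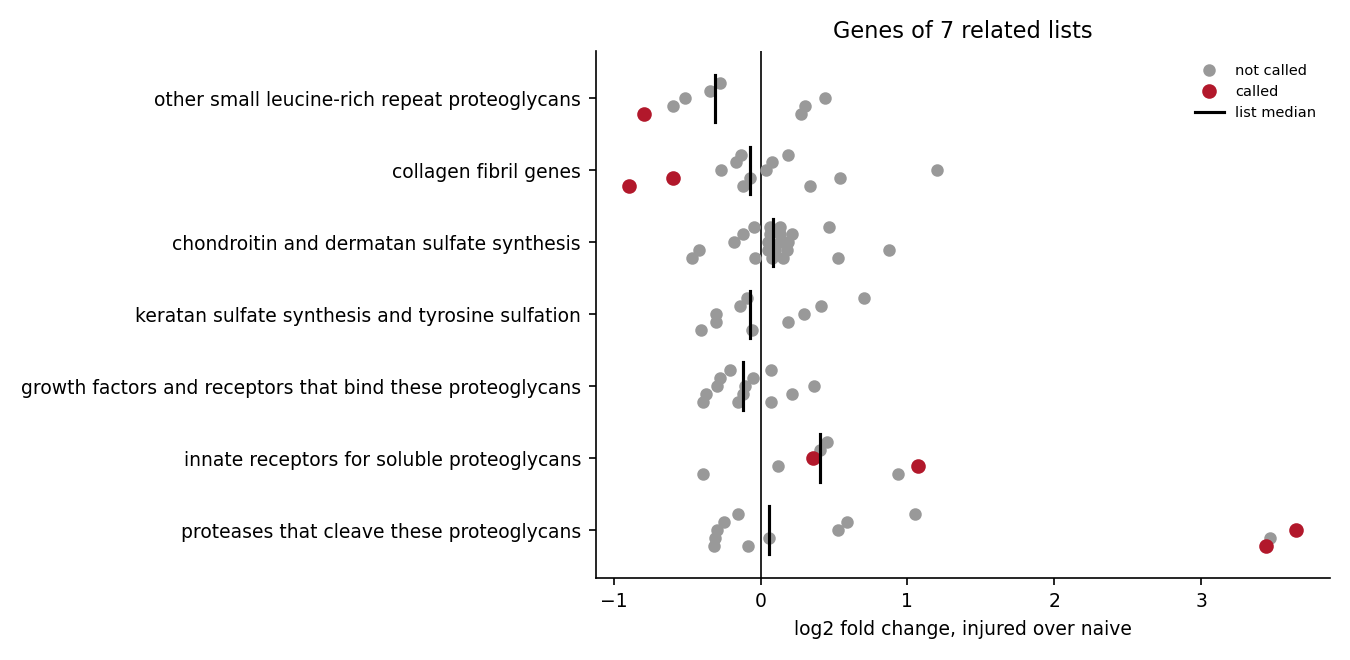
Log2 fold change of injured over naive lungs for each tested gene of the 7 lists, red where called at an adjusted p under 0.05, with the list median as a black bar. The red points at left are Ecm2, Col12a1 and Col14a1, and those at right Cd44, Cd14, Mmp9 and Mmp8.

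Markers of the cells that make these proteins are given beside the results, and their part in them was not tested. In whole lung, fewer cells of a type and less RNA per cell cannot be told apart. All 6 markers of alveolar fibroblasts had negative log2 fold changes and 2 of them, Npnt (-0.83) and Itga8 (-0.48), fell. Pdgfra (-0.06 ± 0.17, SE) and Col13a1 (-0.02 ± 0.13) were near 0. Their summed levels were 2600 to 2750 CPM in injured and 3291 to 4248 CPM in naive lungs. Npnt alone gave 771 to 847 CPM of the sum in injured and 1111 to 1781 CPM in naive lungs. Of 6 adventitial fibroblast markers, from -0.83 to 0.31, 5 had a negative log2 fold change and 1 fell, Clec3b. Their summed levels were 358 to 426 CPM in injured and 415 to 557 CPM in naive lungs. All 6 smooth muscle markers had negative log2 fold changes, from -0.82 to -0.13, and 1 fell, Actg2. They summed to 539 to 773 CPM in injured and 744 to 916 CPM in naive lungs. All 5 pericyte markers had negative log2 fold changes, from -0.19 to -0.02, of which 0 were called by edgeR, DESeq2 or limma-voom and 0 had an unadjusted p under 0.05, with 527 to 591 CPM in injured and 537 to 633 CPM in naive lungs.

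Cartilage and tendon are rich in Fmod, and their part in the results was not tested. Fmod itself had 3.80 to 18.1 CPM over the 6 lungs. The 7 cartilage markers in the table summed to 1.86 to 6.20 CPM in injured and 1.75 to 3.48 CPM in naive lungs, and 4 of them stayed below 1 CPM in every lung. The 4 tendon markers summed to 6.56 to 8.69 CPM in injured and 5.82 to 13.8 CPM in naive lungs, so the groups overlapped. The 2 tendon markers tested had log2 fold changes of -0.68 and -0.11, and the 2 cartilage markers tested -0.05 and 0.60. Of these 0 were called by edgeR, DESeq2 or limma-voom, and 1 tendon marker had an unadjusted p under 0.05 by DESeq2. Lum, Aspn and Chad were each highest of the injured lungs in replicate 3. The cartilage sum in injured replicate 3 was 6.20 CPM against 2.18 and 1.86 CPM in injured replicates 1 and 2. The collagen fibril genes summed there to 6078 CPM, against 3646 and 3315 CPM in injured replicates 1 and 2 and 2444 to 6205 CPM in naive lungs. Heart muscle markers summed to 549.6 CPM, against 273 and 115 CPM in injured replicates 1 and 2 and 401 to 711 CPM in naive lungs. Both sums were therefore within the naive range in that lung. Mesothelial markers summed to 135 CPM, against 275 and 399.5 CPM in injured replicates 1 and 2 and 367 to 435 CPM in naive lungs. Of the 6 mesothelial and 4 tested heart muscle markers 0 were called by edgeR, DESeq2 or limma-voom. At an unadjusted p under 0.05 by edgeR there were 0 mesothelial markers and 1 heart muscle marker.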

How the data were processed

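RNA of 6 whole left lungs, stored in RNAlater, was sequenced as paired-end reads on an Illumina NovaSeq, per the labels' protocols. STAR, HTSeq, STAR-Fusion, edgeR and DESeq2 are listed with build mm10 in the submitters' processing notes. Their versions, settings and use of strand are not given in the labels or headers. The authors deposited 1 table with read counts per gene, normalized counts, FPKM, and their log2 fold changes with p-values, per the file headers. Within a relative tolerance of 1e-06, the authors' normalized signal was the count over a single factor for each library, and the deposited FPKM followed from count, gene length and library total. The authors' deposited log2 fold changes are quoted only where they are named as such, and their adjusted p-values only as a call.

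Counts were analysed as deposited with edgeR 4.0.16 (limma 3.58.1, R 4.3.3): filterByExpr, TMM scaling, and the robust quasi-likelihood F test with group as the only term, two-sided, with Benjamini-Hochberg adjustment over 15486 genes. SEs are the log2 fold change divided by the root of F. Profiles used log2 CPM with a prior count of 2. Results were recomputed with size factors of DESeq2, with library size alone, with 2 other filters on low counts, by DESeq2 1.42.0, by limma-voom, with the replicate number as a block, and with each library left out. The procedure was tested on simulated data.

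The members, lists and alternatives were chosen with earlier results of these data known. All members were named. From the lists, all other family genes in the table were named, and in each other list the 2 called genes with the largest change per direction at 1 CPM or more, or the 2 most abundant where none was called. Marker genes and other list genes named beside a result were chosen after their values were seen. Epyc and Mmp7, and the cartilage markers Cnmd and Snorc, were not found by symbol in the table. Replicate libraries differed by more than sampling noise, with a chi-square per gene of 12.6 to 71.6.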

Additional observations from a re-analysis of the deposited data

How the results depend on the processing

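With each library left out in turn, the genes called over the whole table numbered 145 to 333 higher (334 with all libraries) and 48 to 146 lower (148). The members called lower numbered 1 to 3 (2 with all libraries), with Fmod among them each time and Prelp in 4 of the 6. List genes called numbered 2 to 4 higher (4) and 1 to 3 lower (3). DESeq2 called 585 genes higher and 417 lower over the table and 7 list genes higher, and with no filter on low counts 269 genes were lower. In all 14 fits Fmod was called lower, from -1.99 to -1.67 on the log2 scale, while Dcn, Lum, Bgn and Aspn were called in 0. No member was called higher in any of them.

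The sign turned in single fits for Lum (-0.40 without injured replicate 3, -0.0034 without naive replicate 1), Bgn (0.041) and Aspn (0.026) without naive replicate 3. With 1 library left out, the log2 fold changes ran from -0.40 to 0.40 for Lum, -0.25 to 0.041 for Bgn and -0.32 to 0.026 for Aspn. Among named list genes the sign turned for Chad without injured replicate 3 (-0.14 to 0.49 over the 6 fits), Csgalnact2 (-0.020 to 0.092) and B4galt1 (-0.16 to 0.040) without naive replicate 2, and Tpst2 without naive replicate 3 (-0.22 to 0.17). None of these was called with all libraries, and the cause was not tested. Cd44 was also not called with DESeq2 size factors, by limma-voom or with the replicate block, and Col14a1 not by limma-voom.

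Same-numbered injured and naive lungs deviated from their group means with correlations of 0.08, -0.09 and 0.15 for replicates 1, 2 and 3. The highest with a naive lung of another number were 0.0047, 0.28 and 0.14. The same number thus gave the higher value for replicates 1 and 3 and the lower for replicate 2, which does not settle pairing. The numbers were not taken to pair the lungs in the main fit. With the replicate number as a block, 413 genes over the whole table were called higher and 208 lower (334 and 148 without it), of which 2 members were lower, 9 list genes higher and 4 lower. With 3 lungs a group, the SE of Lum was 0.37 on the log2 scale, and a change of several times that size could also be missed. In the main fit Ogn, at -0.57 ± 0.13 (SE), was not called.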
